A study of Mus musculus with 32 samples.

Results

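The 10 genes described here include Nqo1, Srxn1, Sqstm1, Cbr3 and Ephx1, which serve detoxification and the handling of oxidized proteins. The others are G6pdx, Pgd and Me1, which form NADPH, and Taldo1 and Tkt, which exchange carbon units within the pentose phosphate pathway. All 10 were chosen by name, as genes of the NRF2 response and of the NADPH supply. They come from the 17877 gene names on the array, and 17 of its 25697 probes belong to them. Earlier results of these data were known when they were chosen. In the deposited profiles 8 of the 10 genes carry their present symbol, with 12 probes, while Srxn1 (3 probes, listed as NPN3) and Me1 (2 probes, listed as MOD1) carry an older name and were found through their RefSeq accession. Of the 17 probes 16 passed the detection filter, and each of the 10 genes kept at least 1 probe. The other one, Nqo1 probe 780301, was detected on 0 of 32 arrays.

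NRF2 (gene Nfe2l2) is a transcription factor that the adaptor protein KEAP1 normally marks for degradation. When electrophiles or oxidants modify KEAP1, NRF2 builds up and, with a small MAF partner, binds antioxidant response elements in promoters and enhancers. The pentose phosphate pathway and malic enzyme reduce NADP to NADPH, which glutathione reductase, thioredoxin reductase and many detoxification enzymes consume. In brain, the basal NRF2 response is known to be stronger in astrocytes than in neurons.

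RNA came from the right cortex and the right striatum of Gpx1-/- mice, by their titles and genotype label, of the C57/Bl6 strain and 8 to 10 weeks old. Gpx1 encodes a glutathione peroxidase that reduces hydrogen peroxide. Within each region the 4 groups were sham surgery (anesthetic and neck incision), and 2 h of middle cerebral artery occlusion followed by reperfusion for 2 h, 8 h or 24 h, with 4 Illumina MouseRef-8 V2 arrays each and 32 in all. Every group, sham included, carries the Gpx1-/- label, no wild-type arrays were analysed here, and the growth protocol speaks of wild-type males, so what Gpx1 loss adds cannot be read from these arrays. The Gpx1 probe was detected on all 32 arrays and was called in 1 comparison with sham, in cortex at 8 h (0.88 ± 0.19, adjusted p = 0.00255); where it lies relative to the deleted part is not given in the sources used here, so it does not check the genotype. The labels do not say that the 4 arrays of a group come from separate animals, so the p-values measure the spread between these samples.

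Between 10701 and 11935 probes were detected per array (41.6% to 46.4%). Values below are normalized log2 signals of 1 probe, listed in the order of replicates 1 to 4 as numbered through the array codes of the deposited profiles. Changes are log2 differences ± standard error (SE) from limma with n = 4 arrays per group. A gene was called where at least 1 of its probes had a Benjamini-Hochberg adjusted p under 0.05 over all 12758 probes tested. Where all arrays of a group are said to lie above or below sham, the share of all genes that do so is not given. Such statements describe the values of a probe and are not read as a result. The number of arrays limits the precision, and in tissue RNA fewer cells of a type and less RNA per cell cannot be told apart. Cortex 24 h replicate 1 and cortex 8 h replicate 4 lay nearer to sham than the other arrays of their groups on the second principal component (-3.9 against 18 to 37.4, and -0.5 against 12.5 to 15.4). In sham tissue 5 of 6 measured cortical neuron markers were lower in striatum than in cortex, but only 1 of 6 striatal neuron markers (Tac1) was higher. All 16 striatum arrays carried hypothalamic neuropeptide transcripts, with a mean log2 signal over Avp, Hcrt, Oxt and Pmch of 9.38 to 10.41, against 4.77 to 5.89 on 15 of the 16 cortex arrays and 8.91 on cortex 8 h replicate 2.

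In cortex limma called 0 of 10 at 2 h, 3 at 8 h (Srxn1, Sqstm1 and Tkt) and 6 at 24 h (these and Nqo1, Pgd and Taldo1), where 2.51%, 10.5% and 17.1% of all 9475 genes were called higher. In striatum it called 1 at 2 h (Tkt), 4 at 8 h (Nqo1, Pgd, Tkt and Me1) and 4 at 24 h (Nqo1, Pgd, Taldo1 and Tkt), beside 3.75%, 13.5% and 15.5% of all genes. The only member probe called lower than sham was a weak Tkt probe in striatum at 24 h, where 19.1% of all genes were called lower. At an unadjusted p under 0.05 cortex at 2 h had 2 members, Taldo1 and Tkt, and with the authors' deposited ratios it had 0 called as well. The share of all genes at the unadjusted threshold was not counted, so the 2 are not read as a result.

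Over the 10 members the median log2 change in cortex was 0.06, 0.26 and 0.40 at 2, 8 and 24 h, while that of all genes was -0.01 at each time. In striatum the median of the members was 0.17, 0.15 and 0.32, against 0, -0.01 and -0.03 for all genes. The members did not move as one block: in cortex at 24 h their changes ran between -0.13 (Ephx1) and 0.72 (Tkt).

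**Figure D1:**
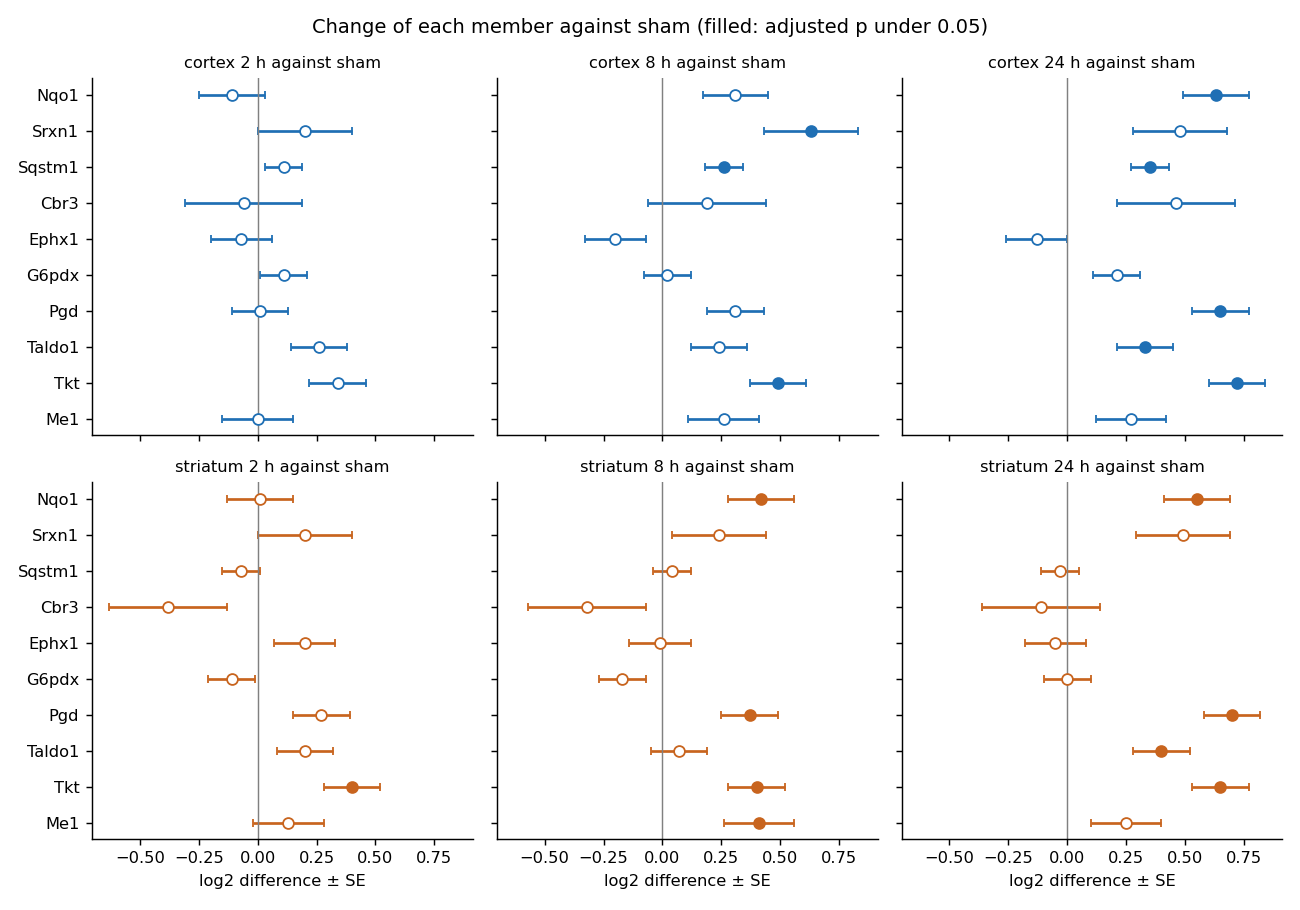
Log2 difference of each reperfusion group from sham (horizontal axis, ± SE, n = 4 arrays per group) for the most intense probe of each of the 10 members (vertical axis), with a panel for each region and time. Filled points passed an adjusted p of 0.05; Pgd and Tkt reach 0.65 and 0.72 in cortex and 0.70 and 0.65 in striatum at 24 h, while Ephx1 stays near 0, and Srxn1 in cortex at 24 h was called through another probe than the one drawn.

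**Figure D2:**
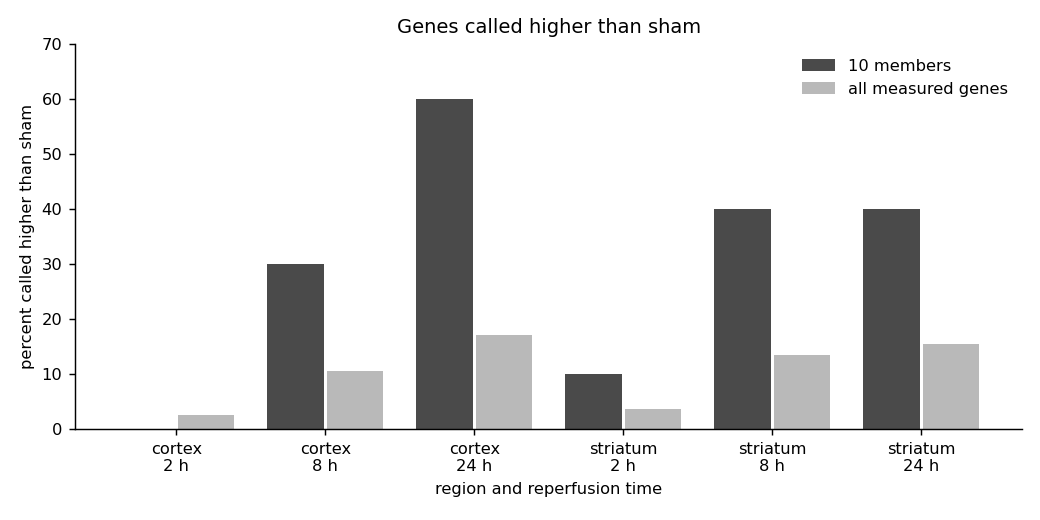
Percent of the 10 members (dark bars, left of each pair) and of all 9475 measured genes (light bars) called higher than sham, by region and reperfusion time. The members' bars stand above those of all genes in every comparison but cortex at 2 h, where 0 members and 2.51% of all genes were called. The members were chosen with earlier results of these data known, so the bars describe them and are not a test. The striatum 2 h bar is 1 gene, Tkt, and its count changed in 7 of 8 runs with 1 array left out.

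Promoter windows of 300 bases (250 before to 50 after the annotated start, RefSeq, GRCm38.p6) were matched for all 10 members, with 12 windows in all, since Pgd and Me1 have more than 1. They are shown because the antioxidant response element is where NRF2 binds. Its core was searched as TGACNNNGC and TGAGNNNGC, and the AP-1 site, which it can overlap, as TGACTCA and TGAGTCA, on both strands. The AP-1 spellings are each other's reverse complement, so they mark the same sites. A core was found in 5 of the 12 windows, those of Srxn1 (3 cores), G6pdx and Taldo1 and 1 window each of Pgd and Me1, whereas 27.8% of 32851 windows of all genes hold one. The Pgd core lay at 3 to 11 in the window chr4:149166033-149166332, whose start is inside the gene. The window at the outer start of Pgd (chr4:149166656-149166955) held none. An AP-1 site was found in the windows of Srxn1 and Me1 and in 5.2% of all windows. The windows of Nqo1, Sqstm1, Cbr3, Ephx1 and Tkt held none of these letters, which speaks only for these windows. The sequences follow in the direction of the gene, with motif letters in capitals. They are Srxn1, the window with the most matches (chr2:152105274-152105573, plus strand), Me1, whose core spans the annotated start (chr9:86695865-86696164, minus strand), and Nqo1, with no match (chr8:107403156-107403455, minus strand).
Srxn1: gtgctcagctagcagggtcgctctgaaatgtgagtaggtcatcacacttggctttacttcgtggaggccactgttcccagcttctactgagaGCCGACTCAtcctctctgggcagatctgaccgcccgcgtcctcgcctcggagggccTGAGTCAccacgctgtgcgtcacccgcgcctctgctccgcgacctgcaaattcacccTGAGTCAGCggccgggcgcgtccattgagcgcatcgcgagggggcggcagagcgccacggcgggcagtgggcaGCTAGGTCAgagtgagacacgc
Me1: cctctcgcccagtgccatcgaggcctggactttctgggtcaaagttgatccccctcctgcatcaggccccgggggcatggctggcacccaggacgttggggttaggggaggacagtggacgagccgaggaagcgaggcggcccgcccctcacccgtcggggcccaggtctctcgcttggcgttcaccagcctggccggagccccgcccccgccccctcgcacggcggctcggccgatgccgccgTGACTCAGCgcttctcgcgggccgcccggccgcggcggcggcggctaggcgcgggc
Nqo1: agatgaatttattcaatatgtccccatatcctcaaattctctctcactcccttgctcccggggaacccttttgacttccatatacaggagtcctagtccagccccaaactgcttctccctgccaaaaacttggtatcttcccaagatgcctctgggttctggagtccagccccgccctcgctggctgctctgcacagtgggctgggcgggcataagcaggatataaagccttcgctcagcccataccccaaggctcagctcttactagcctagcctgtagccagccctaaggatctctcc
In Srxn1 the core TGAGTCAGC at -45 to -37 (the start being position 0) overlaps an AP-1 site at -45 to -39, a further AP-1 site lies at -102 to -96, and cores on the opposite strand, TGAGTCGGC and TGACCTAGC, lie at -158 to -150 and 28 to 36. In Me1 the core TGACTCAGC at -6 to 2 overlaps an AP-1 site in the same way. A match describes letters, not binding.

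The quinone reductase Nqo1 uses NADH or NADPH to reduce quinones and is a commonly used readout of NRF2. Its gene lies on chromosome 8 from 107388225 to 107403205 (GRCm38.p6). In cortex its probe 4010673 read 5.58, 5.35, 5.67 and 5.53 in sham, 5.51, 5.49, 5.29 and 5.39 at 2 h, 5.87, 6.12, 5.71 and 5.66 at 8 h, and 6.20, 6.23, 6.21 and 6.03 at 24 h. It was detected on 0 of 4 sham arrays, 0 at 2 h, 2 at 8 h and all 4 at 24 h, and the 24 h arrays all lay above the sham arrays. At 24 h Nqo1 was higher by 0.63 ± 0.14, or at least 1.31-fold over the detection limit of the sham arrays (adjusted p = 0.000959), while the 8 h difference of 0.31 ± 0.14 did not pass (adjusted p = 0.109). The 8 h value did pass when arrays were scaled to their 75th percentile (0.44, adjusted p = 0.0178). Both 8 h sizes compare signals near or below the detection limit, so neither is a measured size of change.

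In striatum Nqo1 was detected on every array, with 6.11, 6.35, 5.92 and 6.03 in sham, 6.11, 6.12, 6.28 and 5.95 at 2 h, 6.74, 6.76, 6.00 and 6.62 at 8 h, and 6.87, 6.78, 6.35 and 6.63 at 24 h. At 8 h replicate 3 lay among the sham arrays and the other arrays of the group above all of them. Nqo1 rose by 0.42 ± 0.14 at 8 h (adjusted p = 0.0249) and by 0.55 ± 0.14 at 24 h, 1.47-fold (adjusted p = 0.00318). The 24 h calls in both regions held in every alternative run, whereas the 8 h call was lost when sham replicate 1 or 3 was dropped (adjusted p = 0.0535 and 0.0867) and when 8 h replicate 1, 2 or 4 was (0.0786, 0.0857 and 0.0639), and also with each region fitted alone (0.0631). The 24 h cortex arrays (6.03 to 6.23) lay within the range of the striatum sham arrays (5.92 to 6.35).

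Srxn1 (chromosome 2, 152105524 to 152111376) encodes sulfiredoxin, which uses ATP to restore peroxiredoxins that peroxide has over-oxidized. Its most intense probe, 610463, read 9.78, 9.93, 9.65 and 9.75 in cortex sham, 9.96, 9.93, 10.01 and 10.02 at 2 h, 10.89, 10.47, 10.39 and 9.89 at 8 h, and 9.70, 10.78, 10.24 and 10.30 at 24 h. The spread within a group was larger at 8 and 24 h (SD 0.41 and 0.44) than in sham or at 2 h (0.12 and 0.04), and the low arrays were 8 h replicate 4 and 24 h replicate 1, the same that stood apart over all genes. At 8 h Srxn1 rose by 0.63 ± 0.20 on this probe, 1.55-fold (adjusted p = 0.0274), and by 0.70 ± 0.22 on probe 2970189 (adjusted p = 0.0299), while probe 2340431 gave 0.52 ± 0.21 and did not pass (adjusted p = 0.0795). At 24 h probe 2970189 alone passed, at 0.70 ± 0.22 (adjusted p = 0.019), against 0.48 for 610463 (adjusted p = 0.0698) and 0.52 for 2340431 (adjusted p = 0.0587).

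The Srxn1 calls turned on single arrays. Without cortex 24 h replicate 1, probes 610463 and 2340431 also passed at 24 h (0.66, adjusted p = 0.0107, and 0.73, adjusted p = 0.00583), and without 24 h replicate 2 probe 2970189 no longer did (0.51, adjusted p = 0.105). At 8 h probe 610463 was lost when sham replicate 1, 3 or 4 was dropped (adjusted p = 0.0541, 0.0666 and 0.0542) and when 8 h replicate 1, 2 or 3 was (0.112, 0.0566 and 0.059). Probe 2970189 was lost when any sham array was dropped (0.0519, 0.0611, 0.0577 and 0.0622 for replicates 1 to 4) and when 8 h replicate 1 or 3 was (0.126 and 0.0957). Both 8 h calls were also lost without a detection filter (0.0546 and 0.0609) and with the authors' ratios (0.0551 and 0.0541). Without 8 h replicate 4, probe 2340431 passed at 8 h (0.67, adjusted p = 0.0273).

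In striatum Srxn1 probe 610463 read 10.01, 9.93, 9.92 and 9.99 in sham, 10.14, 10.13, 10.25 and 10.14 at 2 h, 10.14, 10.57, 10.36 and 9.73 at 8 h, and 10.18, 11.13, 10.28 and 10.22 at 24 h. All 2 h and all 24 h arrays lay above the sham arrays, and 24 h replicate 2 stood far above the rest. The 24 h difference of 0.49 ± 0.20 did not pass (adjusted p = 0.0644), although it did without 24 h replicate 1 (0.58, adjusted p = 0.0421). The 3 Srxn1 probes moved together over the 32 arrays, with Pearson's r of 0.87 to 0.94 between them.

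**Figure D3:**
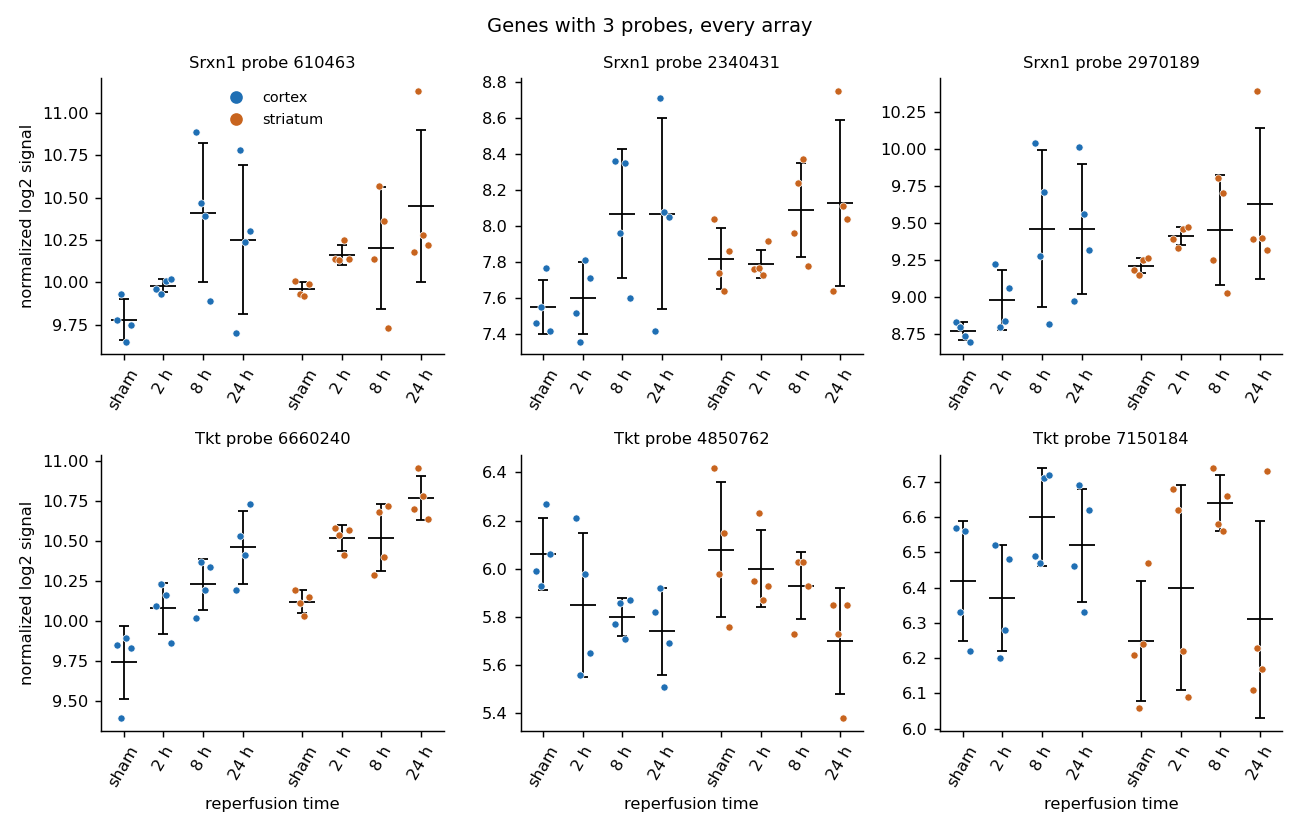
Normalized log2 signal (vertical axis) of the 3 Srxn1 probes (upper row) and the 3 Tkt probes (lower row) on every array, by region and reperfusion time (horizontal axis); points are arrays and black bars the mean ± SD of 4. The Srxn1 probes share their high and low arrays, whereas Tkt probe 6660240 is higher after reperfusion and probe 4850762, at a log2 signal near 6, is not.

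Sqstm1 (chromosome 11, 50200152 to 50210820) encodes p62, an autophagy receptor that also binds KEAP1 and is itself an NRF2 target. In cortex its probe read 11.19, 11.31, 11.24 and 11.19 in sham, 11.36, 11.45, 11.26 and 11.30 at 2 h, 11.64, 11.40, 11.47 and 11.45 at 8 h, and 11.47, 11.67, 11.64 and 11.55 at 24 h, so that all 8 h and 24 h arrays lay above all sham arrays. Sqstm1 rose by 0.26 ± 0.08 at 8 h (adjusted p = 0.0305) and 0.35 ± 0.08 at 24 h, 1.27-fold (adjusted p = 0.00234). The 8 h call was lost with scaling to the 75th percentile (0.20, adjusted p = 0.101), with the authors' ratios as deposited (0.09, adjusted p = 0.518) or centred (0.19, adjusted p = 0.106), when sham replicate 1, 3 or 4 was dropped (0.0734, 0.0531 and 0.0699), and when 8 h replicate 1 or 3 was (0.098 and 0.0597). The 24 h call was lost with the authors' ratios (0.20, adjusted p = 0.0974) but not once these were centred on the median of each array.

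In striatum the Sqstm1 arrays overlapped sham at every time: the probe read 11.54, 11.73, 11.61 and 11.74 in sham, 11.58, 11.59, 11.66 and 11.51 at 2 h, 11.70, 11.60, 11.80 and 11.68 at 8 h, and 11.85, 11.52, 11.66 and 11.45 at 24 h. Its changes of -0.07, 0.04 and -0.03 did not pass (adjusted p = 0.647, 0.788 and 0.787). The difference between the regions, the striatal minus the cortical response at 24 h, was -0.38 ± 0.12 with a 95% confidence interval of -0.63 to -0.14, which had an unadjusted p of 0.00283 in limma and did not pass over all probes (adjusted p = 0.257). With the authors' ratios Sqstm1 was called lower in striatum at 24 h (-0.29, adjusted p = 0.0123), a scale on which the median of all probes was itself -0.18.

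Cbr3, a carbonyl reductase, and Ephx1, the microsomal epoxide hydrolase, were called in 0 of the 6 comparisons with sham. Cbr3 probe 6960441 read 9.24, 9.47, 9.20 and 9.35 in cortex at 24 h, against 8.85, 8.63, 9.04 and 8.90 in sham. The 24 h cortex arrays all lay above the sham arrays, but the difference of 0.46 ± 0.25 did not pass (adjusted p = 0.16) in the 32-array fit and did with each region fitted alone (adjusted p = 0.0141). In striatum at 8 h the Cbr3 arrays ran from the lowest to the highest of the whole series, at 7.58, 8.24, 8.29 and 9.56, against 8.38, 8.96, 8.64 and 8.98 in sham (-0.32 ± 0.25, adjusted p = 0.36). Without 8 h replicate 4 Cbr3 was called lower there, at -0.70 (adjusted p = 0.011) on this probe and -0.91 (adjusted p = 0.0035) on probe 2230411.

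On the same 4 striatum 8 h arrays the mean log2 signal of the striatal neuron markers was 7.71, 8.56, 8.16 and 9.55, against 9.26, 9.62, 9.22 and 9.46 in sham. Of these markers 6 of 10 were measured, Adora2a was undetected, the summed signal was 2080 to 9280 at 8 h and 5280 to 6660 in sham, and 3 were called lower. Their part in the Cbr3 values was not tested. Ephx1 read 8.46, 8.26, 8.39 and 8.16 in cortex at 24 h, against 8.61, 8.38, 8.48 and 8.31 in sham, with overlapping arrays and changes of -0.20 to -0.07 in cortex and -0.05 to 0.20 in striatum. All 4 striatum 2 h arrays of Ephx1 (8.70, 8.68, 8.72 and 8.79) lay above the sham arrays (8.47, 8.46, 8.55 and 8.60), a difference of 0.20 ± 0.13 that did not pass (adjusted p = 0.375).

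**Figure D4:**
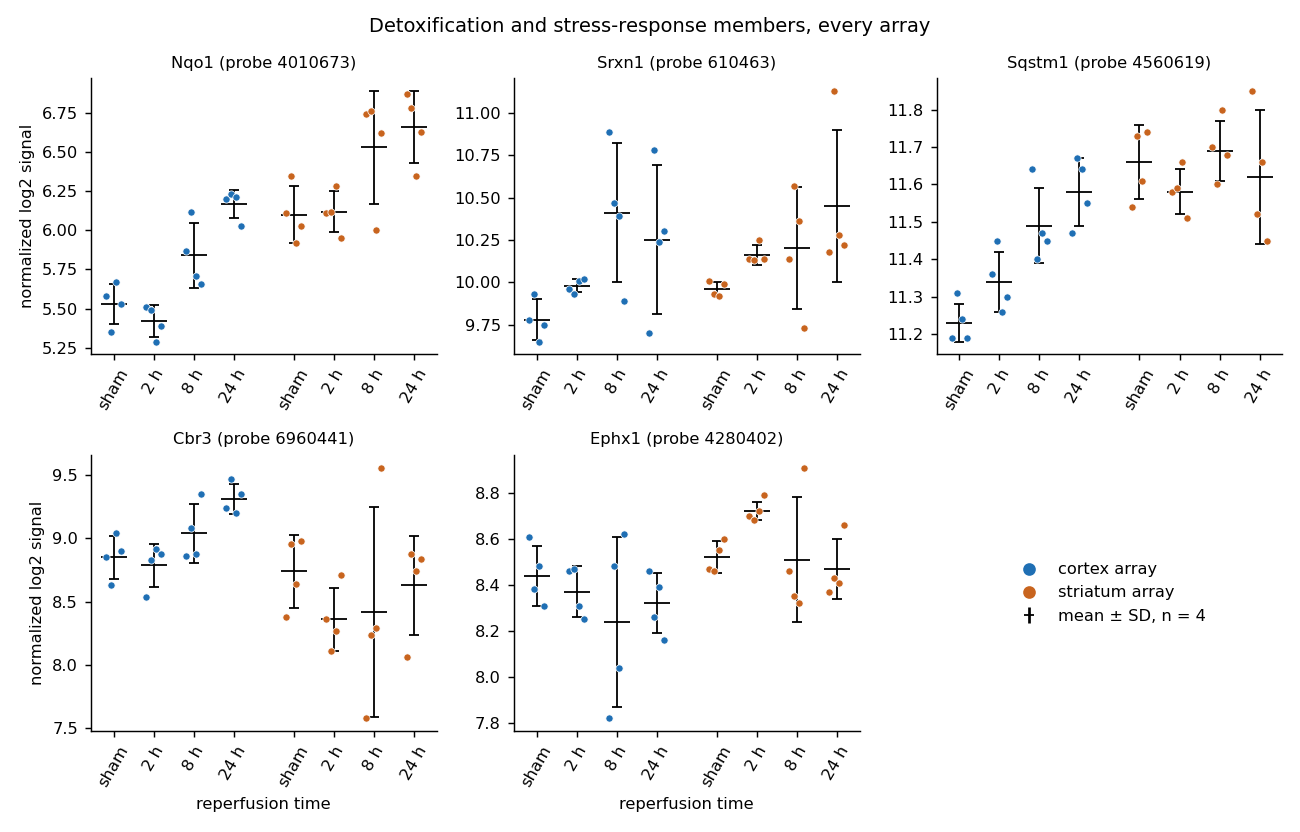
Normalized log2 signal (vertical axis) of Nqo1, Srxn1, Sqstm1, Cbr3 and Ephx1 on every array, by region and reperfusion time (horizontal axis); points are arrays and black bars the mean ± SD of 4. Nqo1 climbs to 6.17 in cortex and 6.66 in striatum at 24 h, the cortical Sqstm1 arrays at 8 and 24 h lie above sham while the striatal ones overlap it (the regional difference did not pass, adjusted p = 0.257), and the striatum 8 h arrays of Cbr3 span 7.58 to 9.56.

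Among the genes of NADPH supply, G6pdx opens the pentose phosphate pathway and Pgd carries out its next NADPH-forming step, Taldo1 and Tkt exchange carbon units between its sugars in the non-oxidative branch, and Me1 forms NADPH from malate. Pgd (chromosome 4, 149149991 to 149166705) in cortex read 8.95, 8.96, 9.07 and 9.09 in sham, 8.93, 9.01, 9.13 and 9.04 at 2 h, 9.27, 9.44, 9.41 and 9.18 at 8 h, and 9.26, 10.04, 9.60 and 9.80 at 24 h. The 8 h and 24 h arrays all lay above the sham arrays, with the lowest 24 h value again on replicate 1. Pgd rose by 0.65 ± 0.12 at 24 h, 1.57-fold (adjusted p = 0.000243), after a difference of 0.31 ± 0.12 at 8 h that did not pass (adjusted p = 0.0792) but did without 8 h replicate 4 and 24 h replicate 1 (0.35, adjusted p = 0.0281).

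Pgd in striatum read 9.16, 9.26, 9.21 and 9.46 in sham, 9.61, 9.63, 9.37 and 9.53 at 2 h, 9.56, 9.74, 9.56 and 9.69 at 8 h, and 9.76, 10.33, 9.90 and 9.88 at 24 h. Here the groups at 8 h and 24 h did not overlap sham, and the 24 h arrays also lay above all 8 h arrays. The rise was 0.37 ± 0.12 at 8 h (adjusted p = 0.0302) and 0.70 ± 0.12 at 24 h, 1.62-fold (adjusted p = 0.000135). The 8 h call was lost when sham replicate 1, 2 or 3 was dropped (adjusted p = 0.0924, 0.0631 and 0.0758) and when 8 h replicate 2 or 4 was (0.0734 and 0.0676), whereas both 24 h calls held in every alternative run.

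Tkt, transketolase (chromosome 14, 30549131 to 30574724), was the member called most often. Its most intense probe, 6660240, read 9.85, 9.39, 9.89 and 9.83 in cortex sham, 10.09, 10.23, 10.16 and 9.86 at 2 h, 10.02, 10.37, 10.19 and 10.34 at 8 h, and 10.19, 10.53, 10.41 and 10.73 at 24 h. Sham replicate 2 was the low array of its group, and all 8 h and 24 h arrays lay above all sham arrays. The cortical difference was 0.34 ± 0.12 at 2 h (adjusted p = 0.093, not passed), and Tkt rose by 0.49 ± 0.12 at 8 h (adjusted p = 0.00663) and 0.72 ± 0.12 at 24 h, 1.65-fold (adjusted p = 7.52e-05).

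Tkt probe 6660240 in striatum read 10.19, 10.11, 10.03 and 10.15 in sham, 10.58, 10.54, 10.41 and 10.57 at 2 h, 10.29, 10.68, 10.40 and 10.72 at 8 h, and 10.70, 10.96, 10.78 and 10.64 at 24 h. Every reperfusion array lay above every sham array. It rose by 0.40 ± 0.12 at 2 h (adjusted p = 0.0474), 0.40 ± 0.12 at 8 h (adjusted p = 0.0177) and 0.65 ± 0.12 at 24 h (adjusted p = 0.000263). The 2 h call was lost when sham replicate 1, 2 or 3 was dropped (adjusted p = 0.0913, 0.109 and 0.126) and when any 2 h array was (0.119, 0.0902, 0.0686 and 0.0912 for replicates 1 to 4), and also with the array code as a block (0.0501) and without a detection filter (0.0677). The 8 h call was lost when sham replicate 3 (0.0543), 8 h replicate 2 (0.056) or 8 h replicate 4 (0.0704) was dropped.

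The 3 Tkt probes did not report the same pattern. Probe 7150184, at group means of 6.25 to 6.64, was called higher once, in striatum at 8 h (0.39 ± 0.14, adjusted p = 0.0363). That call was lost when sham replicate 1, 2 or 3 was dropped (adjusted p = 0.0818, 0.119 and 0.0719) and when 8 h replicate 1, 3 or 4 was (0.081, 0.0529 and 0.0701), without a detection filter (0.0576), with each region fitted alone (0.0706) and with the authors' ratios (0.175). Probe 4850762, detected on 1 to 4 arrays of each group, was called lower in striatum at 24 h, with 5.85, 5.73, 5.38 and 5.85, against 6.42, 5.98, 6.15 and 5.76 in sham (-0.37 ± 0.14, adjusted p = 0.0432). This was lost when sham replicate 1, 2 or 3 was dropped (adjusted p = 0.196, 0.0511 and 0.0972), when 24 h replicate 2 or 3 was (0.0735 and 0.174), and in 7 of the other settings. Over the 32 arrays Pearson's r with probe 6660240 was 0.19 for 7150184 and -0.41 for 4850762. The files give no probe sequences, so the transcripts that each probe reads cannot be told apart here.

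Taldo1, transaldolase, read 10.50, 10.41, 10.50 and 10.48 in cortex sham, 10.73, 11.04, 10.70 and 10.47 at 2 h, 10.74, 10.86, 10.64 and 10.60 at 8 h, and 10.60, 11.08, 10.90 and 10.66 at 24 h. In striatum it read 10.74, 10.65, 10.86 and 10.73 in sham, 11.12, 10.93, 10.92 and 10.78 at 2 h, 10.85, 10.82, 10.81 and 10.75 at 8 h, and 11.08, 11.50, 11.05 and 10.92 at 24 h. The 24 h arrays lay above sham in both regions, with replicate 2 highest in each. Taldo1 rose at 24 h by 0.33 ± 0.12 in cortex (adjusted p = 0.0306) and 0.40 ± 0.12 in striatum, 1.32-fold (adjusted p = 0.0115). The striatal call was lost without 24 h replicate 2 (0.28, adjusted p = 0.0817). The authors' ratios did not give it either (0.15, adjusted p = 0.28). The cortical one was lost when sham replicate 1, 2 or 4 was dropped (adjusted p = 0.05, 0.0764 and 0.0528), when 24 h replicate 2 or 3 was (0.148 and 0.079), with scaling to the 75th percentile (0.0526), with each region fitted alone (0.0563), and with the authors' ratios as deposited or centred (0.272 and 0.077).

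G6pdx showed no called change with reperfusion in either region. The cortical values at 24 h were 7.38, 7.47, 7.42 and 6.98, against 7.09, 7.03, 7.05 and 7.23 in sham, so that 3 arrays lay above sham and replicate 4 below it (0.21 ± 0.10, adjusted p = 0.129). It was called without 24 h replicate 4 (0.32, adjusted p = 0.0219) and with scaling to the 75th percentile (0.27, adjusted p = 0.039). In striatum its changes were -0.11, -0.17 and 0.00, with 95% confidence intervals of -0.33 to 0.10, -0.38 to 0.05 and -0.21 to 0.22. Me1 probe 5690743 rose in striatum at 8 h, with 8.45, 8.64, 8.85 and 8.80, against 8.26, 8.04, 8.43 and 8.37 in sham (0.41 ± 0.15, adjusted p = 0.0496). The other Me1 probe, 1570338, gave 0.01 ± 0.13 (adjusted p = 0.972), and the call was lost when any sham array was dropped (adjusted p = 0.0992, 0.16, 0.0532 and 0.0514 for replicates 1 to 4) and when 8 h replicate 2, 3 or 4 was (0.0671, 0.14 and 0.116), as well as without a detection filter (0.0844). In cortex Me1 probe 5690743 differed from sham by 0.00, 0.26 and 0.27 at 2, 8 and 24 h, none past the threshold (adjusted p of 0.245 at 8 h and 0.186 at 24 h).

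**Figure D5:**
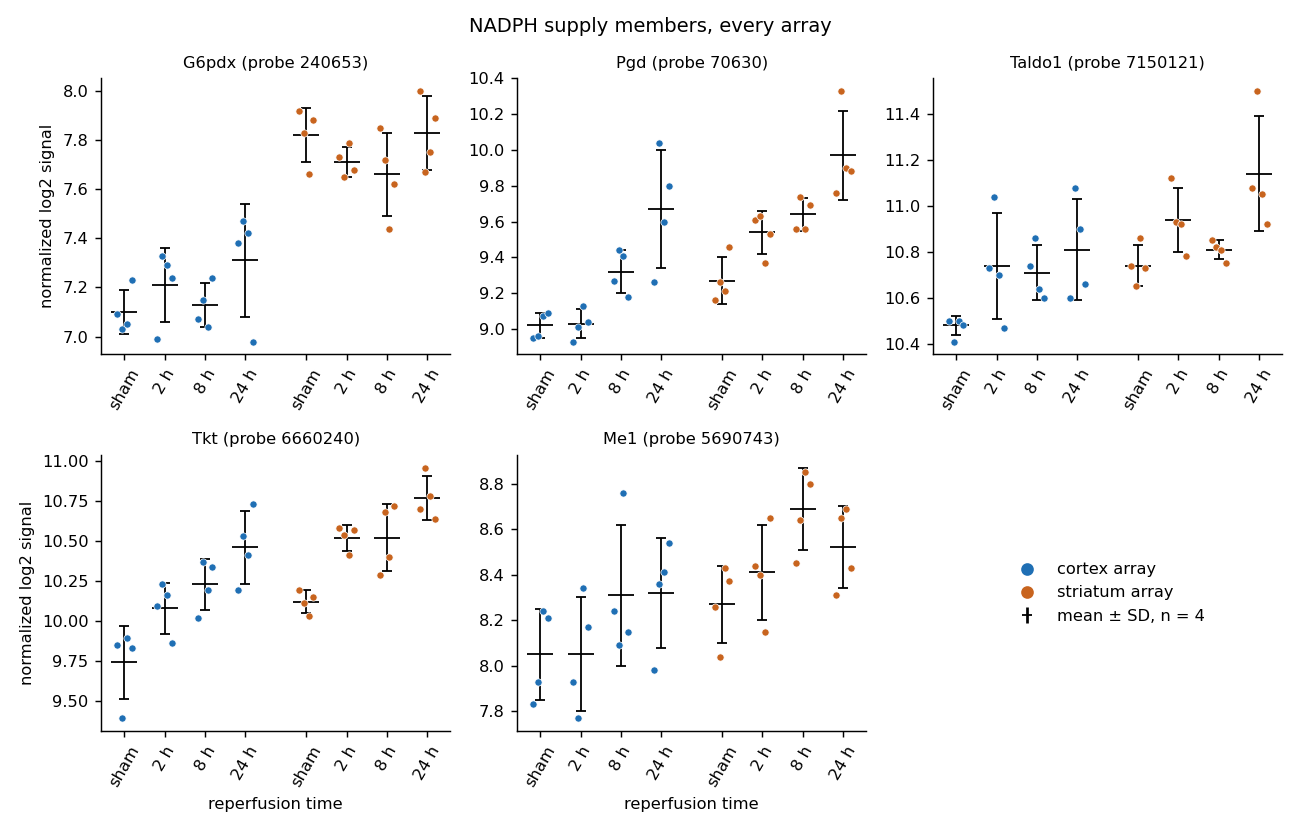
Normalized log2 signal (vertical axis) of G6pdx, Pgd, Taldo1, Tkt and Me1 on every array, by region and reperfusion time (horizontal axis); points are arrays and black bars the mean ± SD of 4. Pgd climbs to 9.67 in cortex and 9.97 in striatum at 24 h, and G6pdx differs more between the regions than between the times within a region.

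With the authors' deposited ratios, on which the median of all probes was -0.13 in striatum at 8 h, Nqo1, Pgd, Tkt and Me1 were not called there (adjusted p = 0.107, 0.259, 0.153 and 0.266) and G6pdx was called lower (-0.30, adjusted p = 0.0136). With these ratios centred on each array's median, 3 members were called higher and Me1 was not (0.33, adjusted p = 0.0683). Tkt in striatum at 2 h was not called with the ratios as deposited either (0.27, adjusted p = 0.104).

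Successive times within a region were compared to place the changes in time. Between 2 and 8 h limma called 0 of 10 members in cortex, beside 3.43% of all genes in either direction, and 0 in striatum, beside 1.89%. Between 8 and 24 h it called 0 in cortex, beside 8.28%, and 0 in striatum, beside 8.36%. At an unadjusted p under 0.05 there were 3 members in cortex and 1 in striatum between 2 and 8 h, and 2 in cortex and 3 in striatum between 8 and 24 h. Without the share of all genes at that unadjusted threshold, which was not counted, these numbers are not read as a result. Nqo1 was detected on 0 of 4 cortex arrays at 2 h, so no size is given for its step to 8 h there (adjusted p = 0.081). In striatum it gave 0.41 ± 0.14 from 2 to 8 h (adjusted p = 0.116). The striatal step was called without 8 h replicate 3 (0.59, adjusted p = 0.0176). Pgd gave 0.35 ± 0.12 from 8 to 24 h in cortex (adjusted p = 0.0803) and 0.33 ± 0.12 in striatum (adjusted p = 0.101), and the cortical step was called without 24 h replicate 1 (0.49, adjusted p = 0.0079). Comparisons that share an arm, such as 8 h against sham and 24 h against 8 h, are not independent.

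The difference between the regions in their response was tested for each time. The labels do not say whether same-numbered arrays of the regions come from the same mice, and the fit treats them as independent. Their deviations from the group means correlated at -0.05 to 0.54. With the replicate number as a block across regions 0 members were called at each time as well. Limma called 0 of 10 members at 2, 8 and 24 h, where 0.00%, 0.00% and 0.0106% of all genes were called, and at an unadjusted p under 0.05 the members numbered 0, 0 and 1 (Sqstm1). For this unadjusted count too, the share of all genes was not counted. At 24 h the striatal minus cortical difference was 0.04 for Pgd (95% confidence interval -0.31 to 0.40), -0.08 for Tkt probe 6660240 (-0.43 to 0.28) and 0.06 for Taldo1 (-0.28 to 0.40). Intervals of this width do not show that the regions respond alike. For Cbr3 it was -0.57 (-1.28 to 0.14). No size is given for Nqo1, whose cortical response is only a lower bound because 0 of 4 cortex sham arrays detected it.

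Sham striatum was compared with sham cortex for the basal levels. Limma called 4 members higher in striatum (G6pdx, Nqo1, Sqstm1 and Tkt) and 0 lower, beside 19.0% and 17.8% of all genes. G6pdx read 7.92, 7.83, 7.66 and 7.88 in striatum sham, against 7.09, 7.03, 7.05 and 7.23 in cortex sham, with no overlap (0.72 ± 0.10, 1.65-fold, adjusted p = 3.13e-06). Nqo1 was higher by 0.57 ± 0.14, or at least 1.25-fold (adjusted p = 0.00157), Sqstm1 by 0.42 ± 0.08 (adjusted p = 0.000195) and Tkt probe 6660240 by 0.38 ± 0.12 (adjusted p = 0.0162). The Tkt call was lost without cortex sham replicate 2 (0.26, adjusted p = 0.104). The regions carry different array codes, whose leading part was read as the slide, though the labels do not say so. Region and array code cannot be told apart in this comparison. In the same arrays 6 of 8 oligodendrocyte markers were called higher in striatum, and Mbp had probes called in both directions (the list's summed signal was 52600 to 53700 in striatum, against 37700 to 39300 in cortex). All 4 hypothalamic neuropeptides were higher. Of 8 measured astrocyte markers 3 were called higher (Aqp4, Gja1 and S100b) and 1 lower, with a summed signal of 24900 to 28200 in striatum, against 23100 to 25400 in cortex. Of 7 measured neuron markers 1 was called higher and 4 lower, with a summed signal of 27800 to 29500 in striatum, against 39100 to 41900 in cortex. Their part in the member levels was not tested.

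Members of several cell type marker lists were also called against sham. At 24 h 17.1% of all genes were called higher and 19.8% lower in cortex, and 15.5% and 19.1% in striatum. Of the infiltrating myeloid markers 5 of 10 were measured (Ccr2, Msr1, Itgam, Ngp and Camp were undetected) and all 5 were called higher at 24 h in both regions. Their mean log2 signal in cortex at 24 h was 6.21, 9.98, 7.76 and 9.85, against 5.78, 6.48, 5.58 and 5.60 in sham, with summed signals of 450 to 8380 and 293 to 573. In striatum at 24 h it was 8.28, 9.94, 8.47 and 9.71, against 5.78, 6.20, 5.97 and 5.87 in sham, with summed signals of 1720 to 5670 and 362 to 460. Cortex 24 h replicate 1 was low in these markers as well as in Srxn1 and Pgd, while replicate 2 was high in the markers and in Srxn1 and Pgd in both regions. Cortex 24 h replicate 4, with a marker mean of 9.85, read 10.30 for Srxn1 and 9.80 for Pgd. Cortex 24 h replicate 3, with a marker mean of 7.76, read 10.24 and 9.60. Striatum 24 h replicate 4, with a marker mean of 9.71, read 10.22 for Srxn1 and 9.88 for Pgd. These were no higher than on striatum 24 h replicate 3 (10.28 and 9.90), whose marker mean was 8.47. Of 9 microglia markers 6 were called lower and 0 higher in cortex at 24 h, and 4 lower and 1 higher (Cx3cr1) in striatum. Of 7 measured neuron markers 4 were called lower in each region, and of 6 measured striatal neuron markers 5 were called lower in striatum. Of 8 oligodendrocyte markers 4, 3 and 4 were called higher in cortex at 2, 8 and 24 h, and 1 at each time in striatum. Their summed signal in cortex was 37700 to 39300 in sham, 38900 to 47500 at 2 h, 39300 to 46200 at 8 h and 33100 to 42700 at 24 h. Of 8 measured astrocyte markers 2 were called higher and 1 lower in cortex at 24 h, and 2 higher and 2 lower in striatum, and of 7 measured endothelial markers 5 were called higher in each. The haemoglobin gene Hba-a1 was called higher at 2 h in both regions and at 24 h in striatum. The part of these markers in the member changes was not tested.

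Regulators of the pathway were called in both directions, in cortex at 8 and 24 h and in striatum at 8 h. Of 8 NRF2 regulators 7 were measured, among them Nfe2l2 and Keap1. In cortex at 24 h 2 were called higher (Bach1 and Maff) and 2 lower (Mafg and Nfe2l1). In striatum at 24 h 1 was called higher (Bach1) and 0 lower. Of all genes 17.1% were called higher and 19.8% lower in cortex, and 15.5% and 19.1% in striatum. With 7 genes measured, these counts do not set the list apart from those shares. Bach1, a repressor that competes for antioxidant response elements, rose by 1.08 ± 0.29 in cortex (adjusted p = 0.00541) and 0.97 ± 0.29 in striatum (adjusted p = 0.0117) at 24 h, from a sham level detected on 3 of 4 and 1 of 4 arrays. Maff, a small MAF protein, was called higher at 2 h in cortex, to at least 1.29-fold (adjusted p = 0.00461), and at 8 h in cortex and striatum, to at least 1.12-fold and 1.23-fold (adjusted p = 0.00491 and 0.00573). The Maff call in cortex at 24 h (adjusted p = 0.0366) has no fold bound, and 2 of 4 arrays detected it there. Mafg fell by 0.29 ± 0.09 in cortex at 8 h (adjusted p = 0.0232) and by 0.24 ± 0.09 in striatum at 8 h (adjusted p = 0.0464).

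Of 20 other NRF2 targets 13 were measured, and at 24 h 2 of them, Hmox1 and Prdx1, were called higher in each region and 0 lower, beside 17.1% of all genes called higher in cortex and 15.5% in striatum. The median of the 13 was 0.15 in cortex and 0.09 in striatum. Hmox1, heme oxygenase, read 5.72, 8.88, 8.34 and 8.36 in cortex at 24 h, against 5.52, 5.41, 4.60 and 4.95 in sham, where it was detected on 0 arrays (at least 4.13-fold higher, adjusted p = 0.000602). In striatum it read 7.54, 8.68, 7.42 and 8.26, against 5.15, 5.45, 5.62 and 4.96 in sham (2.68 ± 0.56, adjusted p = 0.000661). Of these striatum sham values, 5.15, 5.45 and 4.96 were under the detection limits of their arrays (5.61, 5.69 and 5.77). The value of 5.62 was close to its limit of 5.6. The striatal 2.68 thus starts from signals near or under detection and is not a measured size of change. Prdx1, a peroxiredoxin, rose by 0.56 ± 0.11 in cortex (adjusted p = 0.000561) and 0.35 ± 0.11 in striatum (adjusted p = 0.0205). Gclm, a subunit of the glutathione-synthesis enzyme, read 7.66, 8.81, 8.37 and 8.31 in cortex at 24 h, against 8.36, 8.56, 8.35 and 8.34 in sham, and was not called in any comparison with sham (named after its values were seen).

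Of 13 other genes of the pentose phosphate pathway and NADPH supply 10 were measured, with 4 called higher in each region at 24 h, beside 17.1% of all genes in cortex and 15.5% in striatum. In cortex 2 were called lower and in striatum 1, beside 19.8% and 19.1% of all genes. Pgls, the lactonase between the steps of G6pdx and Pgd, rose by 0.75 ± 0.13 in cortex (adjusted p = 9.02e-05) and 0.66 ± 0.13 in striatum (adjusted p = 0.000354). H6pd, a relative of G6pdx in the endoplasmic reticulum, rose by 0.69 ± 0.17 in striatum (adjusted p = 0.00328), and Idh2, the mitochondrial isocitrate dehydrogenase, by 0.56 ± 0.15 in cortex (adjusted p = 0.00523). The folate enzyme Mthfd2 rose by 0.95 ± 0.21 in cortex at 8 h (adjusted p = 0.00312), and the NAD kinase Nadk fell there by 0.38 ± 0.10 (adjusted p = 0.00904).

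Of 15 other detoxification enzymes 10 were measured, and at 24 h 3 were called higher in cortex and 4 in striatum (17.1% and 15.5% of all genes), with 0 and 1 lower (19.8% and 19.1%). Por, which passes electrons from NADPH to cytochrome P450 enzymes, rose by 0.45 ± 0.13 in cortex (adjusted p = 0.00968) and 0.61 ± 0.13 in striatum (adjusted p = 0.000836). Of 7 subunits of NADPH oxidase, the phagocyte enzyme that uses NADPH to make superoxide, only Cyba and Ncf4 were measured, and both were called higher at 24 h in each region, Cyba by 1.48 ± 0.24 in cortex (adjusted p = 6.12e-05) and 1.82 ± 0.24 in striatum (adjusted p = 5.73e-06) and Ncf4 to at least 1.31-fold and 1.61-fold. Of 10 autophagy receptors and partners of Sqstm1, 8 were measured, and in contrast to Sqstm1 in cortex 0 were called higher and 4 lower (Calcoco1, Map1lc3a, Optn and Tax1bp1) in each region at 24 h, beside 19.8% of all genes called lower in cortex and 19.1% in striatum. Calcoco1 fell by 0.61 ± 0.23 in cortex (adjusted p = 0.0461) and by 0.81 ± 0.23 in striatum (adjusted p = 0.00977).

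Across the 32 arrays, after the sham mean of each region was subtracted, the genes most alike to Srxn1 were Cstb (cystatin B), Igf2bp2 and Hbegf, with Pearson's r of 0.913, 0.909 and 0.908. For Nqo1 they were Psmd13 (0.815), Atraid (0.812) and St6galnac2 (0.806), and for Sqstm1 Gpld1 (0.828), Golga7 (0.827) and Cdk11b (0.815), each the highest of 9465 genes outside the members. Between members r was 0.81 for Pgd and Tkt and 0.71 for Nqo1 and Pgd, but -0.61 for Ephx1 and Srxn1. These values describe arrays that share groups and array codes.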

How the data were processed

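RNA of 32 samples was hybridised to Illumina bead arrays. Per the file headers, the authors used BeadStudio 3.3.7 and applied no normalization to the deposited profiles, which hold a linear intensity per probe. Their deposited detection column is a fraction equal to 1 minus a detection p. The authors' processed table holds a linear ratio to the mean sham array of the region, by a normalization not given in the sources used here, and served as an alternative.

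Intensities were background-corrected, quantile-normalized and log2-transformed by neqc (offset 16) in limma 3.58.1 (R 4.3.3), and a probe was kept if at least 4 arrays detected it at p under 0.01 (12758 probes, 9475 genes). An 8-group lmFit and eBayes fit gave two-sided tests. Where a group detected a probe on 0 arrays, its values were raised to the lowest detected signal, so that the fold is a lower bound. Array codes were read as 8 slides, each with the 4 groups of 1 region, though the labels do not name slides. Place on a slide so read cannot be told apart from group. Same-numbered arrays of a region share an array code; among the comparisons with sham, only those of cortex at 2 and 8 h had every same-numbered pair's deviations from the group means correlate at over 0.1.

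Alternatives changed the blocking, the scaling, the background correction, the detection filter, the spread estimate, the probe choice and the arrays used. The centred ratios and the setting without both divergent cortex arrays were chosen after seeing the data. All members were named, with the largest called changes of each list. The members and lists were chosen with earlier results of these data known.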

Additional observations from a re-analysis of the deposited data

Results flagged for a closer look

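In each group of 4 arrays the gap between an extreme array and its nearest neighbour was divided by the range of the group. Of 128 such sets (16 member probes in 8 groups) 7 exceeded Dixon's 95% critical value, where chance alone flags about 5%, or 6.4 sets. Srxn1 replicate 2 in striatum at 24 h stood at 11.13, above 10.18 to 10.28 on the other arrays (a gap of 89.5% of the range), and on probe 2970189 at 10.39, above 9.32 to 9.40 (92.5%). In striatum at 2 h Srxn1 replicate 3 read 10.25, just above 10.13 to 10.14 (91.7%). Nqo1 replicate 4 in cortex at 24 h read 6.03, below 6.20 to 6.23 (85%). Cbr3 probe 2230411 read 7.29 on replicate 4 in striatum at 2 h, above 6.60 to 6.70 (85.5%), and probe 6960441 read 8.06 on replicate 1 at 24 h, below 8.74 to 8.88 (82.9%). Tkt probe 6660240 read 9.39 on cortex sham replicate 2, below 9.83 to 9.89 (88%).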

How the results depend on the processing

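Of 4380 results for single member probes under an alternative setting, 4260 kept their direction and side of the threshold, 96 fell short of it, 24 newly passed it and 0 reversed. Only a result called in the report can fall short, so the 96 are to be set against the called probes and not against all 4380. The call of Tkt probe 4850762 in striatum at 24 h was kept in 5 of 17 settings. Those of Me1 at 8 h and Tkt probe 6660240 at 2 h in striatum were kept in 8 of 18 each. The 24 h calls of Nqo1, Pgd and Tkt probe 6660240 in both regions, that probe in cortex at 8 h, and the sham differences of G6pdx, Nqo1 and Sqstm1 passed in every alternative run. With the authors' ratios 1 member was called in cortex at 8 h (3 in the report), 0 in striatum at 2 h (1) and 1 in striatum at 8 h (4, all higher, against 1 lower here); the median of all probes on that scale was -0.08 to -0.18, and the cause was not tested. In the comparisons with sham, higher calls made up 44.8% to 52.6% of all calls in the report, 8% to 26.9% with these ratios and 46.2% to 49.9% after centring. Without a detection filter 0 members were called in striatum at 2 h. Without cortex 8 h replicate 4 and cortex 24 h replicate 1, 1 member each was called between 2 and 8 h (Srxn1 probe 2970189, 0.70, adjusted p = 0.0499) and between 8 and 24 h (Pgd, 0.44, adjusted p = 0.0217) in cortex. Leaving out 1 array gave 0 to 0 members in cortex at 2 h, 1 to 3 at 8 h and 4 to 7 at 24 h, 0 to 1, 0 to 3 and 3 to 5 in striatum at these times, 0 to 0 and 0 to 1 for the cortical steps, 0 to 1 for each striatal step, 0 to 0 for the regional differences and 3 to 4 between the sham regions. The fit for 1 array left out assumes that the remaining 3 vary like the other groups.

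Same-numbered arrays deviated together in all 4 pairs for cortex sham with cortex 2 h (r = 0.14 to 0.23) and with cortex 8 h (0.15 to 0.20), and in 17 of 24 cortex, 8 of 24 striatum and 11 of 16 cross-region pairs r was over 0.1. In those cortex comparisons the replicate block called 0 and 3 members, as in the report, and no member call changed. With the array code as a replicate block 0 members were called in striatum at 2 h (Tkt adjusted p = 0.0501) and the weak Tkt probe was not called at 24 h (adjusted p = 0.0565). With the replicate number as a block across regions 5 members were called between the sham regions, Taldo1 added (0.27, adjusted p = 0.0449). Signal close to background limits Nqo1 in cortex and Tkt probe 4850762.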
